A study of Homo sapiens with 24 samples.

Results

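The expression of 10 genes was examined, the germinal centre, B-cell and plasma cell transcription factors BACH2, BCL6, PRDM1, IRF4, PAX5, EBF1, SPIB, XBP1 and FOXP1, and FOXP1-AS1, a non-coding neighbour of FOXP1. They are called regulators here for short. They were selected by symbol from a microarray table of 25161 gene symbols, with earlier results of these data known, and each had 1 row. The table held 25575 log2 expression values for each of 24 arrays of the Clariom D type, which probes human transcripts genome-wide. Arrays came from the diffuse large B-cell lymphoma (DLBCL) line SU-DHL-4 and the Burkitt lymphoma (BL) line DG-75, both established cell lines. Each line was kept for 72 h with the solvent DMSO, with 1 µM Entospletinib (Ento), with 0.01 µM AZD5153 (AZD) or with both (Ento+AZD), at 3 arrays per group. Ento inhibits SYK, a kinase that acts directly downstream of the B-cell receptor. AZD blocks both bromodomains of BET proteins, readers of acetylated histones, at once. DMSO served as the control of every exposure, so that comparisons with DMSO share those 3 arrays within a line. Each lymphoma type was represented by a single line, so that line and lymphoma type cannot be told apart.

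In the germinal centre, B cells multiply and mutate their antibody genes under a programme that BCL6 and BACH2 hold in place by repressing genes of the plasma cell. PAX5 and EBF1 maintain B-cell identity, SPIB is an ETS family factor of B cells, and FOXP1 is a forkhead factor known as an oncogene in DLBCL. Differentiation into plasma cells runs through IRF4, which lowers BCL6, and PRDM1 (BLIMP1), which shuts off the B-cell programme. XBP1 then enlarges the secretory apparatus as part of the unfolded protein response. FOXP1-AS1 is a long non-coding RNA transcribed from within the FOXP1 locus.

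Promoter sequence is given for the genes on which the results turn, that is BACH2 and XBP1, which passed the thresholds under exposure, and FOXP1, whose values ran most closely with those of BACH2 among the other 9 genes. Each run is the 250 bases before an annotated RefSeq start of the build GRCh38.p14 on the minus strand, read 5′ to 3′. The windows are chr6:90296844-90297093 for BACH2, chr22:28800570-28800819 for XBP1 and chr3:71583729-71583978 for FOXP1, the last 2 being the first of 2 and of 6 annotated starts. Capitals mark matches to 6 motifs that were searched on both strands. These were the forkhead motifs GTAAACA and GTCAACA, the cAMP response element TGACGTCA, the AP-1 and MAF core TGANTCA, the STAT and BCL6 type motif TTCNNNGAA and the ER stress response element, CCAAT and CCACG with 9 bases between them.
BACH2: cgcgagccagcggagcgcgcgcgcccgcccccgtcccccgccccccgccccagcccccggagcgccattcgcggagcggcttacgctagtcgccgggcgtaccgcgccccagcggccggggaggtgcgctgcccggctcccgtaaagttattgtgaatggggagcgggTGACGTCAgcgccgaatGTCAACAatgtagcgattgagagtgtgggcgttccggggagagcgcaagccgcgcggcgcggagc
XBP1: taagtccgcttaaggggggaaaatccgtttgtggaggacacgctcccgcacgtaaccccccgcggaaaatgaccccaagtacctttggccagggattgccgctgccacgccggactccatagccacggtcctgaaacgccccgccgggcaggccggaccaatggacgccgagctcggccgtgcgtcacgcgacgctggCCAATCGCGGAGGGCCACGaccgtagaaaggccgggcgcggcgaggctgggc
FOXP1: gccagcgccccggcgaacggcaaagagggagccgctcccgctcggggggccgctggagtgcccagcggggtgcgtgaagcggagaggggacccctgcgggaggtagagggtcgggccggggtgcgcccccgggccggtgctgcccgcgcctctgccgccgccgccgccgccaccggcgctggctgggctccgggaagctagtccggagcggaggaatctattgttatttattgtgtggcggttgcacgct
The BACH2 window held TGACGTCA, beginning 82 bases before the start, and GTCAACA, beginning 65 bases before it. These motifs occurred in 1.65% and 1.95% of all 35116 windows of this length. The XBP1 window held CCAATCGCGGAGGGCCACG, beginning 52 bases before the start, a match to the ER stress response element that occurred in 26 windows (0.074%). No searched motif was found in the FOXP1 window shown. Of the windows at the other FOXP1 starts, the second held TGATTCA, a match to TGANTCA. The fourth held TGTTTAC, the reverse complement of GTAAACA, and TTCCCGGAA, a match to TTCNNNGAA. TGANTCA and TTCNNNGAA each occurred in 6.57% of all windows, and GTAAACA in 2.98%. RefSeq held windows for 9 of the 10 genes, 17 in all. FOXP1-AS1 was not among them and lies inside FOXP1, and 1 of the 6 annotated FOXP1 starts lies inside FOXP1-AS1.

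Array medians lay between 4.89 and 5.14, and replicate arrays correlated at 0.981 to 0.992 across rows. B-cell markers were carried by both lines, with CD79A at 11.9 to 12.4 in SU-DHL-4 and 11.2 to 11.9 in DG-75 on the log2 scale. MS4A1 (CD20) lay at 11.3 to 11.8 in SU-DHL-4 and at 6.22 to 7.995 in DG-75. The 6 T-cell markers did not exceed 4.72 in either line.

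Under DMSO the lines differed in 3 of the 10 regulators beyond the thresholds of an adjusted p under 0.05 (limma) and a fold change over 2, against 7.24% of all rows (18.1% without the fold change limit). EBF1 was higher in SU-DHL-4, while IRF4 and XBP1 were higher in DG-75. EBF1 measured 8.86, 9.25 and 8.91 in SU-DHL-4 and 7.16, 6.91 and 6.87 in DG-75. Its difference of 2.03 (SE 0.143, adjusted p = 9.64e-10, limma) corresponded to groups that did not overlap. IRF4 measured 5.45, 5.55 and 5.27 in SU-DHL-4 against 7.51, 8.24 and 7.24 in DG-75, a difference of -2.24 (SE 0.22, adjusted p = 1.35e-07). XBP1 measured 5.38, 4.98 and 4.43 against 7.43, 7.43 and 7.15, a difference of -2.41 (SE 0.169, adjusted p = 8.42e-10). IRF4 and XBP1 were thus lower in every DMSO array of SU-DHL-4 than in any of DG-75. PRDM1, the third gene of the plasma cell programme, measured 2.57, 2.12 and 2.94 against 3.23, 2.49 and 2.77, which overlapped. These 3 calls held in each of 9 fits that left out an array or a replicate number.

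The repressors differed less between the lines. BACH2 was higher in SU-DHL-4 by 0.69 (SE 0.175, adjusted p = 0.00694) and BCL6 by 0.38 (SE 0.126, adjusted p = 0.0421), both under the fold change limit. The adjusted p of BACH2 rose to 0.0636 without DG-75 DMSO replicate 3, to 0.0741 and 0.163 without replicate numbers 1 and 3, and to 0.0927 without the replicate term. That of BCL6 rose to 0.234 without DG-75 DMSO replicate 3, to 0.188 in a fit of the DMSO arrays alone and to 0.454 without replicate number 3, and it passed in 2 of 6 fits that left out a single array. BCL6 stood at 11.61 to 11.99 over the 12 arrays of SU-DHL-4 and at 11.04 to 11.55 over those of DG-75. SPIB was higher in SU-DHL-4 by 0.51 (SE 0.179, adjusted p = 0.0539), short of the threshold. Its limma adjusted p ran from 0.0115 to 0.127 over other settings. Over fits that left out an array or a replicate number it ran from 0.0273 to 0.417. The differences of PAX5 and FOXP1 did not pass the test, with 95% intervals of -0.01 to 0.63 and -0.02 to 0.58. PRDM1 lay between 1.65 and 3.23 in all 24 arrays. No detection value was used, so that PRDM1 cannot be called expressed or absent.

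**Figure D1:**
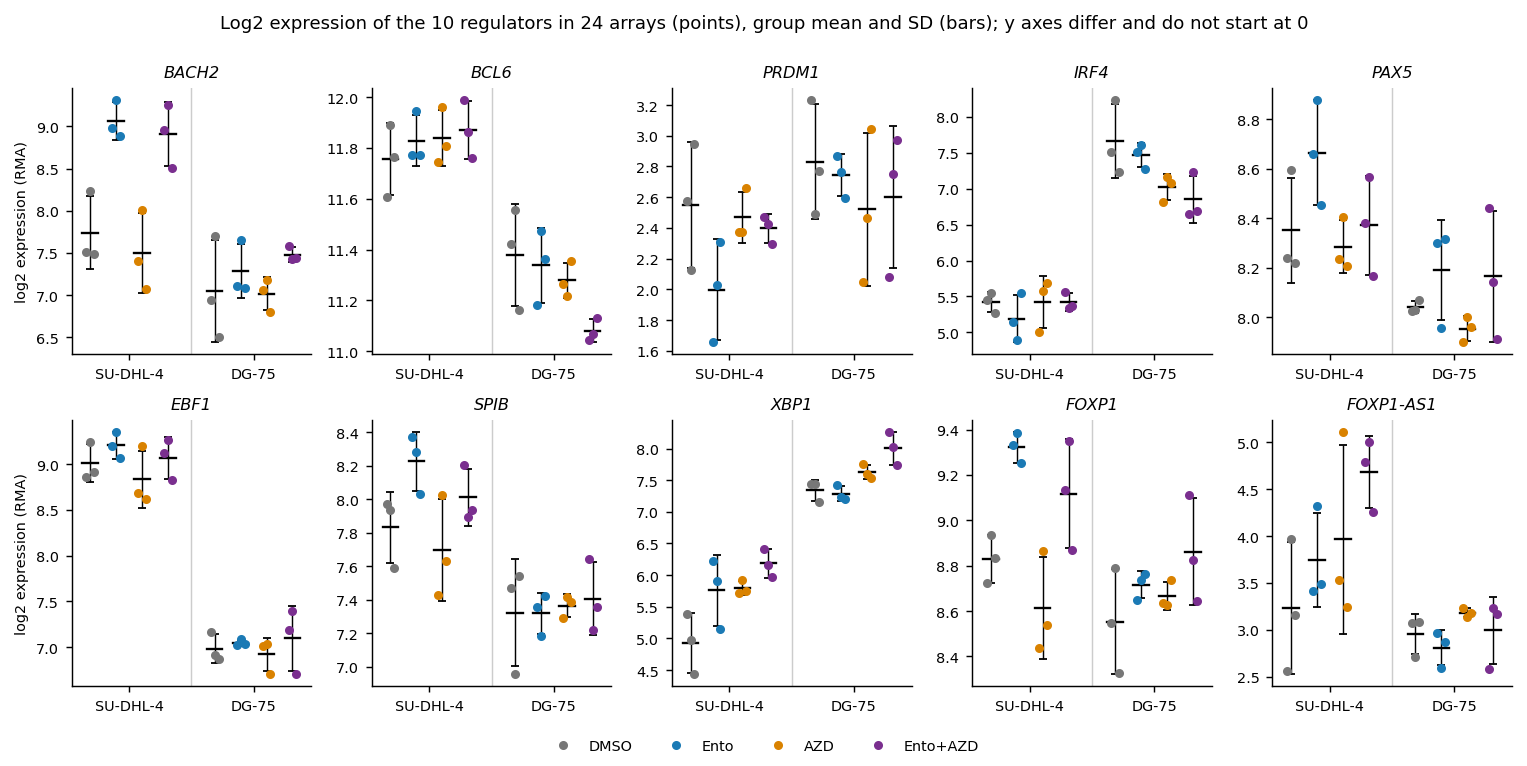
Log2 expression of the 10 regulators (y axis, RMA values, a separate range per gene) in the 8 groups, with 3 arrays as points, the mean as a line and the SD as bars. In SU-DHL-4 the BACH2 points with Ento lie at 8.51 to 9.32 and those without at 7.08 to 8.23, and EBF1, IRF4 and XBP1 separate the lines.

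BACH2, which competes with activating factors at MAF recognition elements and represses PRDM1, was the regulator with the largest response to SYK inhibition in SU-DHL-4. Its log2 values were 7.51, 8.23 and 7.48 under DMSO, 8.98, 9.32 and 8.89 under Ento, 7.41, 8.01 and 7.08 under AZD, and 8.96, 9.26 and 8.51 under Ento+AZD. All 6 arrays with Ento lay above all 6 arrays without it. BACH2 rose by 1.32 under Ento alone against DMSO (SE 0.152, adjusted p = 0.00936, limma), a 2.50-fold change, and was the only one of the 10 regulators called, against 0.0508% of all rows. It rose by 1.41 when Ento was added to AZD (SE 0.152, adjusted p = 0.00632), again as the only call among the 10, against 0.0274% of rows. Averaged over AZD, the rise with Ento was 1.37 (SE 0.107, 95% interval 1.13 to 1.60, adjusted p = 0.000149), the row with the third smallest p of all, where 0.086% of rows were called. No other regulator was called in this averaged comparison.

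No change of BACH2 with AZD passed the test. The averaged difference with AZD was -0.20 in SU-DHL-4 (95% interval -0.43 to 0.03, adjusted p = 0.454), and the departure of Ento+AZD from the sum of both single exposures was 0.09 (95% interval -0.38 to 0.56). The averaged rise of BACH2 with Ento was called in 15 of 15 fits that left out an array or a replicate number, with values from 1.29 to 1.47, and under all 8 other settings. The comparison of Ento alone with DMSO rested on more of its arrays. Its adjusted p rose to 0.133 without DMSO replicate 1, 0.0847 without Ento replicate 1, 0.0749 without DMSO replicate 3 and 0.105 without Ento replicate 3, while the change stayed between 1.22 and 1.44. The call held in 2 of 9 fits that left something out and was lost without each replicate number, with an adjusted p of up to 0.326. For Ento+AZD against AZD, the adjusted p of BACH2 was 0.0718 without AZD replicate 1, 0.0644 without AZD replicate 3 and 0.0835, 0.0763 and 0.0559 without Ento+AZD replicates 1, 2 and 3. This call held in 1 of 9 fits and was lost without each replicate number, with an adjusted p of up to 0.374. In a fit without the replicate number, the adjusted p was 0.219 and 0.255 for these comparisons and up to 0.0129 for the averaged rise.

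In DG-75, BACH2 measured 6.94, 7.70 and 6.50 under DMSO, 7.11, 7.66 and 7.09 under Ento, 7.06, 7.18 and 6.80 under AZD, and 7.58, 7.43 and 7.44 under Ento+AZD. The arms with and without Ento overlapped, with an averaged difference of 0.35 (SE 0.143, adjusted p = 1 in limma). In DG-75 no regulator was called for Ento, against 0.00391% of rows. The test of the difference between the lines gave 1.01 for BACH2 (SE 0.179, 95% interval 0.64 to 1.39, adjusted p = 0.058), which did not pass, where 0.0235% of rows were called. It was called in 1 of 27 fits that left out an array or a replicate number, at an adjusted p of 0.028 without DG-75 DMSO replicate 3. Its adjusted p reached 0.837 without replicate number 1 and 0.737 without the replicate term. Among other settings, it was called with low rows left out (0.0452) and with a trended robust prior (0.0165).

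FOXP1 ran with BACH2 across the arrays, at a smaller amplitude. In SU-DHL-4 it measured 8.72, 8.93 and 8.84 under DMSO and 9.33, 9.39 and 9.25 under Ento, which did not overlap. Under AZD the values were 8.44, 8.87 and 8.54, and under Ento+AZD 9.13, 9.35 and 8.87. The averaged difference with Ento was 0.50 (SE 0.102, 95% interval 0.28 to 0.72, adjusted p = 0.0849), which did not pass. It passed the adjusted p, always under the fold change limit, in 1 fit of all 24 arrays (0.0327), after quantile normalization (0.0455) or array median subtraction (0.0236), with low rows left out (0.0339) and with a trended robust prior (0.0074). It did not pass without the replicate term (0.178) or in any of 15 fits that left out an array or a replicate number (FOXP1 adjusted p up to 0.595). In DG-75 FOXP1 stayed between 8.33 and 9.11 over all arrays. Over the 24 arrays, with the mean of each line removed, BACH2 and FOXP1 correlated at r = 0.89, and at 0.94 within SU-DHL-4 and 0.70 within DG-75. This is a description, as the points share treatments and replicate numbers.

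**Figure D2:**
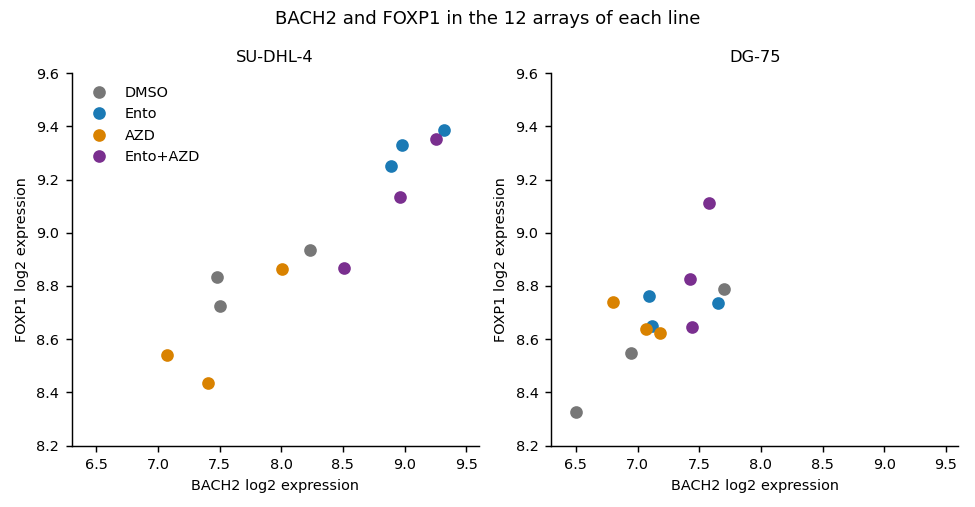
FOXP1 against BACH2 log2 expression in SU-DHL-4 (left) and DG-75 (right), with 12 arrays each as points coloured by exposure and the same axes in both. In SU-DHL-4 (r = 0.94) the Ento and Ento+AZD arrays occupy the upper right, with BACH2 at 8.51 or above, while in DG-75 (r = 0.70) the exposures mix.

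The symbols whose values ran most like those of BACH2 were AFF3 (r = 0.89), FOXP1 and EIF2AK3 (r = 0.85). Within SU-DHL-4 and DG-75, AFF3 correlated with BACH2 at 0.95 and 0.60, and EIF2AK3 at 0.90 and 0.82. AFF3, a subunit of super elongation complexes, measured 7.86, 8.18 and 7.46 under DMSO in SU-DHL-4 and 8.80, 9.32 and 8.60 under Ento. It rose by 1.14 with Ento averaged over AZD (SE 0.119, adjusted p = 0.00188), a call that was lost without replicate number 1 or 3 and without the replicate term. EIF2AK3 (PERK), a sensor kinase of the unfolded protein response, was also the symbol most like FOXP1 (r = 0.91). Its averaged difference with Ento in SU-DHL-4 was 0.39 (SE 0.109, adjusted p = 0.234). CTSS, a lysosomal protease of antigen presentation, ran with FOXP1 at r = 0.88, and at 0.96 within SU-DHL-4 and 0.60 within DG-75. In SU-DHL-4 CTSS differed by 0.51 with Ento (SE 0.107, adjusted p = 0.0908).

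XBP1 rose under Ento+AZD, and with AZD on average, in both lines. In SU-DHL-4 its log2 values were 5.38, 4.98 and 4.43 under DMSO, 6.22, 5.91 and 5.14 under Ento, 5.71, 5.92 and 5.74 under AZD, and 6.42, 6.16 and 5.98 under Ento+AZD. The lowest Ento+AZD array lay above the highest DMSO array. Under Ento+AZD XBP1 rose by 1.25 (SE 0.196, adjusted p = 0.00811), a 2.38-fold change. Ento alone gave 0.83 (SE 0.196, adjusted p = 0.27) and AZD alone 0.86 (SE 0.196, adjusted p = 0.109), neither of which passed. AZD alone passed the adjusted p in 1 fit of all 24 arrays (0.0248) and with the trended robust prior (0.0468), and reached 0.337 without the replicate term. The averaged rise with AZD was 0.64 (SE 0.139, adjusted p = 0.0308), under the fold change limit, where 0.317% of rows were called and 2.51% passed the adjusted p alone. It passed in 5 of 12 fits that left out a single array. It did not pass without DMSO replicate 2 or 3, Ento replicate 3, AZD replicate 3 or any one Ento+AZD array. The averaged difference of XBP1 with Ento was close to that with AZD, at 0.61, and did not pass. Its limma adjusted p was 0.023 to 0.397 under other settings. AZD added to Ento gave 0.42 and Ento added to AZD 0.39, neither of which passed. In SU-DHL-4, Ento+AZD against DMSO called 3 regulators, XBP1, BACH2 and FOXP1-AS1, against 1.19% of all rows. BACH2 rose there by 1.17 (SE 0.152, adjusted p = 0.00567), and this was called without each single array in turn, though not without replicate number 3 (adjusted p = 0.102). The call of XBP1 held in 5 of 9 fits that left out an array or a replicate number, and its adjusted p rose to 0.0671 without DMSO replicate 2, 0.0504 without DMSO replicate 3, and 0.0935 and 0.116 without replicate numbers 2 and 3. In a fit without the replicate number none of the 3 was called, with adjusted p values of 0.0697 for XBP1, 0.0933 for BACH2 and 0.186 for FOXP1-AS1. The averaged rise of XBP1 with AZD had an adjusted p of 0.155 in that fit.

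In DG-75, XBP1 measured 7.43, 7.43 and 7.15 under DMSO, 7.42, 7.24 and 7.20 under Ento, 7.75, 7.60 and 7.53 under AZD, and 8.26, 8.03 and 7.74 under Ento+AZD. The 6 arrays with AZD lay above all 6 arrays without it. The averaged rise with AZD was 0.50 (SE 0.09, 95% interval 0.31 to 0.70, adjusted p = 0.00726), that under Ento+AZD against DMSO 0.67 (SE 0.127, adjusted p = 0.0258) and that against Ento 0.72 (SE 0.127, adjusted p = 0.0246). All 3 passed the adjusted p, as did 8.37%, 2.39% and 1.66% of all rows, and stayed under the fold change limit. AZD alone against DMSO gave 0.29 and did not pass, with limma adjusted p values of 0.149 to 0.475 under other settings. The departure of Ento+AZD from the sum of both single exposures was 0.43, which did not pass either. The averaged rise passed in 12 of 12 fits that left out a single array, and its adjusted p was 0.226 without replicate number 1 and 0.0661 without number 2. The rise against DMSO passed in 1 of 6 such fits, without Ento+AZD replicate 3, and that against Ento in 2 of 6, without Ento or Ento+AZD replicate 3. The difference between the lines in the averaged AZD response of XBP1 was 0.14 (95% interval -0.21 to 0.49, adjusted p = 0.855).

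IRF4 was lower with AZD in DG-75. It measured 7.51, 8.24 and 7.24 under DMSO, 7.51, 7.61 and 7.28 under Ento, 6.82, 7.16 and 7.08 under AZD, and 6.65, 7.23 and 6.69 under Ento+AZD. Every array with AZD lay below every array without it, although the nearest pair, 7.23 and 7.24, almost met. IRF4 fell by 0.63 with AZD averaged over Ento (SE 0.124, adjusted p = 0.0119) and by 0.81 under Ento+AZD against DMSO (SE 0.176, adjusted p = 0.0403), both under the fold change limit. The averaged fall passed in 12 of 12 fits that left out a single array, with adjusted p values of 0.0134 to 0.0444. It missed the threshold without replicate number 1 (0.279) or 2 (0.0664) and after quantile normalization (0.0652). The fall of IRF4 under Ento+AZD against DMSO passed in 0 of 6 such fits, at adjusted p values of 0.0602 to 0.217. In DG-75, 0.755% of rows were called in the averaged AZD comparison, 0.833% under Ento+AZD and 0.657% for Ento+AZD against Ento, and none of the 10 regulators was. In SU-DHL-4 IRF4 stayed between 4.89 and 5.69 in all groups. The averaged AZD response of IRF4 differed between the lines by 0.74 (SE 0.198, 95% interval 0.33 to 1.16, adjusted p = 0.13), which did not pass the test.

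**Figure D3:**
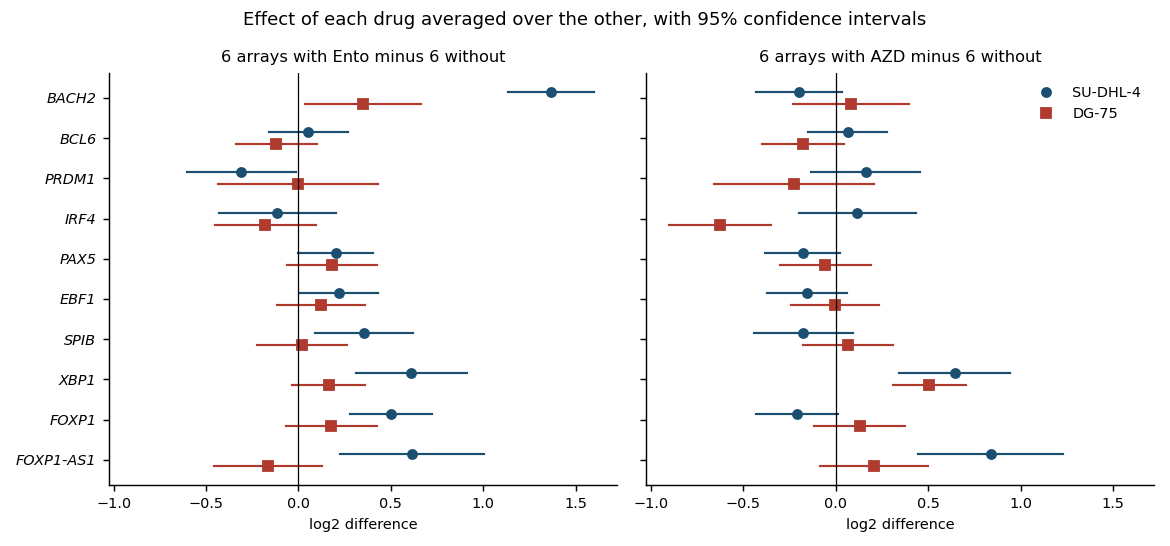
Log2 difference of each regulator between the 6 arrays with and the 6 arrays without Ento (left) or AZD (right), with 95% confidence intervals, in SU-DHL-4 (circles) and DG-75 (squares). BACH2 in SU-DHL-4 stands at 1.37 for Ento, and for AZD XBP1 lies at 0.64 and 0.50 in the lines and IRF4 at -0.63 in DG-75.

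FOXP1-AS1 measured 2.57, 3.97 and 3.16 under DMSO in SU-DHL-4, 3.41, 4.32 and 3.49 under Ento, 3.54, 5.11 and 3.24 under AZD, and 4.79, 5.00 and 4.26 under Ento+AZD. Replicate 2 was the highest in each of the 4 groups. Its array value rose by 1.45 under Ento+AZD (SE 0.254, adjusted p = 0.0127). The averaged difference with AZD was 0.84 (SE 0.18, adjusted p = 0.0301) and that with Ento 0.62 (SE 0.18, adjusted p = 0.257). The former passed in 4 of 12 fits that left out a single array, those without AZD replicate 2 or 3, Ento+AZD replicate 2 or DMSO replicate 3. The call under Ento+AZD was lost, at adjusted p values of 0.0536 to 0.083, without DMSO replicate 1 or 2 or Ento+AZD replicate 1 or 3. It was also lost without any of the replicate numbers, at up to 0.11, and in the fit without the replicate term, at 0.186, where the averaged difference with AZD had an adjusted p of 0.271. As no detection value was used, FOXP1-AS1 cannot be called expressed or absent in any group, and these differences describe the array values only. In DG-75 FOXP1-AS1 stayed between 2.58 and 3.24. The difference between the lines under Ento+AZD was 1.41 (SE 0.339, adjusted p = 0.206), which did not pass. FOXP1 itself differed from DMSO by 0.29 under Ento+AZD in SU-DHL-4 (95% interval -0.03 to 0.60), which was not called. The table holds no probe identifiers, and whether the probes of both transcripts overlap cannot be traced.

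BCL6, PAX5, EBF1, SPIB and PRDM1 were called in no exposure. BCL6 in DG-75 lay at 11.16 to 11.55 under DMSO and 11.04 to 11.13 under Ento+AZD, a difference of -0.30 (95% interval -0.61 to 0.01, adjusted p = 0.335). In SU-DHL-4 BCL6 differed with Ento by 0.05 (95% interval -0.16 to 0.27) and with AZD by 0.06 (95% interval -0.15 to 0.28) on average. SPIB differed by 0.35 with Ento in SU-DHL-4 (SE 0.123, adjusted p = 0.345), PAX5 by 0.20 (95% interval -0.00 to 0.41) and EBF1 by 0.22 (SE 0.1, adjusted p = 0.475). PRDM1 had the opposite sign at -0.31 (SE 0.136, adjusted p = 0.453). Over the 10 regulators, the median averaged difference with Ento in SU-DHL-4 was 0.29, with 8 of 10 higher, beside -0.04 over all rows. With AZD the median was -0.05 in SU-DHL-4, beside -0.04 over all rows, and 0.03 in DG-75, beside -0.05. AZD alone called none of the 10 in either line, where 0.18% of rows were called in each, and neither did Ento+AZD against Ento in SU-DHL-4, where 0.0821% were. Between the lines, 0.00782% of rows differed under Ento, 0.0352% under Ento+AZD and 0.239% in the averaged AZD response, and none of the 10 was called.

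Genes tied to these regulators were examined as lists. Of 20 B-cell identity genes bound by PAX5 and EBF1, 1 was called with Ento averaged over AZD in SU-DHL-4, IGLL5, where 0.086% of all rows were, and the median of the list was 0.21 with 18 higher, beside -0.04 over all rows. IGLL5, an immunoglobulin lambda-like gene, measured 6.41, 6.87 and 5.27 under DMSO and 7.99, 7.83 and 7.39 under Ento. It rose by 1.19 in the averaged comparison (SE 0.17, adjusted p = 0.0143), which was called in 8 of 15 fits that left out an array or a replicate number and not without the replicate term. In DG-75 under Ento+AZD, VPREB3, a B-lineage protein, rose by 1.27 (SE 0.186, adjusted p = 0.0162) and CD79B, a signalling chain of the B-cell receptor, by 1.03 (SE 0.187, adjusted p = 0.0227). These were 2 of 20, where 0.833% of all rows were called, and the list's median was 0.09 beside -0.07. VPREB3 was called in 3 and CD79B in 1 of 9 such fits, and VPREB3 not without the replicate term.

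Of 18 genes listed as repressed by BCL6, 3 rose and 2 fell under Ento+AZD in DG-75. In this comparison 0.833% of all rows were called in either direction, and the list's median was 0.15, beside -0.07 over all rows. Repression by BCL6 was not tested here. CD69, an early activation antigen, rose by 1.66 (SE 0.261, adjusted p = 0.0188), CCR7, a homing receptor, by 1.37 (SE 0.186, adjusted p = 0.0162), and S1PR1, an egress receptor named after its value was seen, by 1.34 (SE 0.287, adjusted p = 0.0383). CD80, a co-stimulatory ligand, fell by 1.48 (SE 0.236, adjusted p = 0.0196) and CHEK1, a replication checkpoint kinase, by 1.11 (SE 0.161, adjusted p = 0.0162). These 5 calls under Ento+AZD held in 1 (S1PR1) to 4 (CD69, CCR7) of 9 fits that left out an array or a replicate number. That of CCR7 was lost without the replicate term and that of CHEK1 after quantile normalization. CD80 measured 5.56, 5.31 and 6.03 under Ento+AZD and 5.26, 5.83 and 5.46 under AZD alone, against 6.996, 7.33 and 7.01 under DMSO. Its fall under AZD alone was called (adjusted p = 0.0471), but in 0 of 9 such fits. With AZD averaged over Ento, CD80 fell by 1.59 (SE 0.167, adjusted p = 0.00177) and CD69 rose by 1.21 (SE 0.185, adjusted p = 0.00382), each called in 14 of 15 fits that left something out. In SU-DHL-4, 14 of the 18 genes were lower with AZD averaged over Ento, with a median of -0.31 beside -0.04 over all rows, and 1 of them, CHEK1, was called, against 0.317% of rows. This call held in 11 of 15 fits that left something out, and was lost without replicate 2 of DMSO or Ento+AZD, without replicate number 1 or 3 and without the replicate term. CHEK1 fell by 1.72 under Ento+AZD (SE 0.28, adjusted p = 0.00982). This call held in 6 of 9 fits, with values from -2.04 to -1.18, and was lost without DMSO replicate 2, Ento+AZD replicate 2 or replicate number 3 and without the replicate term. CD69 rose by 1.16 with Ento averaged over AZD (SE 0.173, adjusted p = 0.0184), which was called in 7 of 15 such fits and not without the replicate term.

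Of 19 plasma cell and secretory genes, 1 was called with AZD averaged over Ento in DG-75, against 0.755% of all rows, and none in SU-DHL-4, against 0.317%. TNFRSF17 (BCMA), a survival receptor of plasma cells, measured 7.05, 6.60 and 6.99 under DMSO, 5.20, 6.03 and 5.67 under AZD and 5.01, 5.47 and 5.74 under Ento+AZD. It fell by 1.22 with AZD (SE 0.185, adjusted p = 0.00371), called in 14 of 15 fits that left something out. MZB1, a chaperone of immunoglobulin assembly, fell by 0.96 (SE 0.12, adjusted p = 0.00191), under the fold change limit. The list's median was -0.07 in DG-75, beside -0.05 over all rows. Under AZD alone against DMSO in DG-75, MZB1 was called at -1.07 (SE 0.169, limma adjusted p = 0.0471), where 0.18% of rows were. This call held in 0 of 9 fits that left something out. It was also lost without the replicate term and after quantile normalization or array median subtraction. Of 23 measured germinal centre genes none was called in either averaged comparison (against 0.086% of rows for Ento in SU-DHL-4 and 0.755% for AZD in DG-75), with 19 higher with Ento in SU-DHL-4 (median 0.16 beside -0.04 over all rows) and 20 lower with AZD in DG-75 (median -0.29 beside -0.05). With AZD in SU-DHL-4, 18 of the 23 were lower (median -0.14 beside -0.04), where 0.317% of rows were called. The list had 1 call under exposure, NUGGC, a germinal centre GTPase, which fell by 1.03 under Ento+AZD against Ento in DG-75 (SE 0.179, adjusted p = 0.0246), a call that held in 2 of 9 fits that left something out and was lost after quantile normalization or array median subtraction. Of 9 relatives and small MAF partners of BACH2, none was called for either compound in either line, at 0.00391% to 0.755% of all rows called, shares at which a count of 0 is no result about the list.

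**Figure D4:**
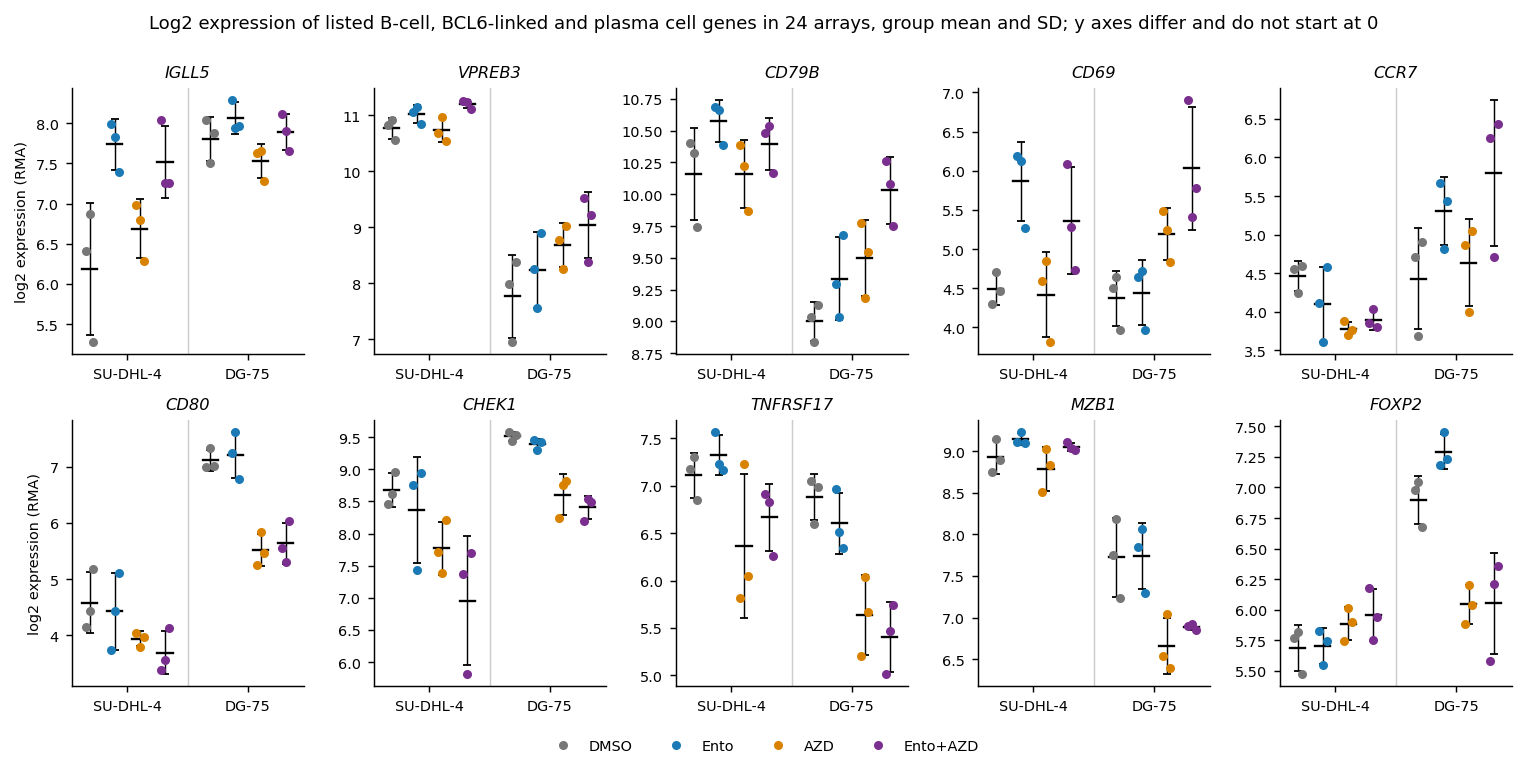
Log2 expression (y axis, RMA values, a separate range per gene) of 10 genes tied to the regulators in the 8 groups, with 3 arrays as points, the mean as a line and the SD as bars. In DG-75, CD80, TNFRSF17 and FOXP2 are lower in every AZD and Ento+AZD array than in any DMSO or Ento array, while IGLL5 in SU-DHL-4 is higher in the Ento arrays.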

How the data were processed

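The authors deposited 1 table of log2 expression values for 24 Clariom D arrays, made by RMA normalization with limma and annotated to gene symbols with affycoretools. RMA corrects background, equalizes distributions between arrays and summarises probes, which compresses large differences. The log base follows from RMA. Genome build and annotation version were not given in the sources used here, and 0 per-sample columns were left unused. The arrays are described as biological triplicates, and their number limits the precision.

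Groups came from the sample labels. Values were tested with limma 3.58.1 in R 4.3.3 (lmFit, contrasts.fit, eBayes). Each line was fitted with 4 treatments and the replicate number as batch, which the study's methods name without defining it. Differences between lines used all 24 arrays with replicate within line, and the DMSO comparison used all 24 with replicate shared. P-values were adjusted by Benjamini-Hochberg over 25575 rows. Calls required an adjusted p under 0.05 together with a log2 fold change beyond 1 in either direction. An averaged comparison sets the 6 arrays with a compound against the 6 without it.

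The regulators and lists were chosen with earlier results of these data known. Named beside them are the 3 symbols most correlated with a regulator, and per list and comparison up to 4 called genes, or 2 of the smallest p where none was called. The calculations were tested on simulated data. Alternatives were a fit without replicate number, other sample sets, quantile normalization, array median subtraction, a filter on low rows, a trended robust prior, no fold change limit, row averaging and omission of arrays or replicate numbers.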

Additional observations from a re-analysis of the deposited data

Results flagged for a closer look

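A few genes of the lists responded differently in the lines by a test of the difference itself (limma, all 24 arrays). Of 18 genes listed as repressed by BCL6, 1 was called under Ento+AZD, where 0.0352% of all rows were. In the averaged AZD response 1 of these 18 was called, where 0.239% of all rows were. No gene of the germinal centre, plasma cell or B-cell identity lists was called in either comparison. CCR7, listed as repressed by BCL6, differed between the lines by -1.942 under Ento+AZD (SE 0.2789, adjusted p = 0.0126). It measured 4.71, 3.69 and 4.90 under DMSO and 6.26, 4.71 and 6.43 under Ento+AZD in DG-75, and 4.56, 4.24 and 4.60 against 3.85, 4.03 and 3.80 in SU-DHL-4. The call was lost without SU-DHL-4 Ento+AZD replicate 3, and in DG-75 without DMSO replicate 1 or 3 or without replicate 1 of Ento+AZD. It was also lost without replicate number 1 or 3 and without the replicate term, and held in 9 of 15 fits that left something out. CD69 differed between the lines by -1.492 in the averaged AZD response (SE 0.2727, adjusted p = 0.0201), with the DG-75 arrays higher with AZD. Its call was lost in DG-75 without replicate 1 of either DMSO or Ento, and also without replicate number 1, 2 or 3 and without the replicate term. It held in 22 of 27 fits that left something out. FOXP2, a forkhead relative of FOXP1, differed by 1.272 in the same comparison (SE 0.1699, adjusted p = 0.00415). In DG-75 it measured 6.98, 7.05 and 6.68 under DMSO and 5.89, 6.20 and 6.04 under AZD, and in SU-DHL-4 5.77, 5.82 and 5.47 against 5.75, 6.01 and 5.90. The FOXP2 call held in 25 of 27 fits that left something out, and was lost without replicate number 1 or 2.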

How the results depend on the processing

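No change that was called or passed the adjusted p reversed under any alternative run. Among differences that passed no test, the departure from additivity of BACH2 in SU-DHL-4 reached -0.02 under another setting, and leaving out arrays or replicate numbers took the averaged Ento difference of BCL6 in SU-DHL-4 to -0.02 and the difference between lines in the averaged AZD response of XBP1 to -0.10. Array median subtraction shifted all changes against DMSO in SU-DHL-4 by 0.118 (Ento), 0.119 (AZD) and 0.13 (Ento+AZD) on the log2 scale, and the difference between lines for Ento by 0.10. Deviations of same-numbered arrays correlated at -0.111 to 0.394 in SU-DHL-4 and at -0.355 to 0.344 in DG-75 (median 0.129, against -0.0432 for different numbers). As not every pair was positive and the labels give the numbers no shared origin, the pairing is not established, although 17 of 24 arrays correlated best with their own number and those numbered 2 and 3 in SU-DHL-4 at 0.0848 to 0.394, a hint of pairing from the data. Without the replicate block, the count of regulators called was 0 in place of 1 for Ento against DMSO, 0 in place of 3 for Ento+AZD against DMSO and 0 in place of 1 for Ento+AZD against AZD, all in SU-DHL-4, and no other count of regulators changed.

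Without a fold change limit, 2 regulators were called with AZD averaged over Ento in SU-DHL-4 (XBP1, FOXP1-AS1), 2 in DG-75 (IRF4, XBP1), 2 under Ento+AZD against DMSO (IRF4, XBP1) and 1 against Ento (XBP1) in DG-75, and 5 between the lines under DMSO (with BACH2 and BCL6 added). The difference between lines in the averaged Ento response called 1 regulator, BACH2, when rows under the median were left out (adjusted p = 0.0452) and with the trended robust prior (adjusted p = 0.0165). Leaving out arrays or replicate numbers gave 0 to 1 called for Ento against DMSO, 0 to 3 for Ento+AZD against DMSO and 0 to 1 for Ento+AZD against AZD in SU-DHL-4, and 0 to 1 for that difference between lines. Averaging the rows of a symbol could not move the fold change of a regulator, as each had 1 row. Standard errors and adjusted p values shifted slightly. For BACH2 under Ento against DMSO in SU-DHL-4, the limma adjusted p went from 0.00936 to 0.00887. The averaged differences between lines had no fit of a smaller sample set. Arrays give no depth, and 3 per group limit what can be called.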

Other observations

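Under DMSO the lines also differed in genes of the lists. Of 23 measured germinal centre genes, 8 were higher in SU-DHL-4 and 1 was lower, where 7.24% of all rows were called in either direction. The median of this list was 0.58, beside 0.01 over all rows. SERPINA9, a germinal centre serpin, was higher by 5.68 (SE 0.387, adjusted p = 5.36e-10), CXCR5, the follicle homing receptor, by 2.62 (SE 0.203, adjusted p = 3.91e-09), CD27, a memory marker, by 2.49 (SE 0.191, adjusted p = 3.48e-09) and BCL11A, a B-cell zinc finger factor, by 2.04 (SE 0.128, adjusted p = 1.55e-10), all by limma. Of 18 genes listed as repressed by BCL6, 3 were higher and 3 lower. BCL2, a survival gene, was higher by 2.76 (SE 0.24, adjusted p = 2.19e-08). Lower were ID2, an inhibitor of E proteins, at -2.30 (SE 0.242, adjusted p = 3.53e-07), and CD80 at -2.53 (SE 0.276, adjusted p = 5.97e-07). CXCR4, a chemokine receptor, was lower at -1.37 (SE 0.242, adjusted p = 0.000243). Of 19 plasma cell and secretory genes 1 was higher and 2 were lower, with MZB1 higher by 1.21 (SE 0.174, adjusted p = 2.5e-05). Lower in SU-DHL-4 were CREB3L2, a relative of XBP1 among the bZIP factors, by -2.87 (SE 0.338, adjusted p = 1.73e-06), and the unfolded protein response genes EDEM1 by -1.40 (SE 0.192, adjusted p = 1.22e-05) and ERN1 (IRE1), whose endonuclease splices XBP1 mRNA, by -1.56 (SE 0.245, adjusted p = 6.77e-05). The stromal gene DCN was higher in SU-DHL-4 by 4.48 (SE 0.265, adjusted p = 5.79e-11) and was the only one of 6 epithelial and stromal markers called. Its part in any of these differences was not tested.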
